A study of Mus musculus with 15 samples.

Results

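Culture adaptation of wild-type (WT) embryonic fibroblasts was followed in 6 of the 15 populations of the series, 3 of primary embryonic fibroblasts (PEFs) and 3 of the culture-adapted mouse embryonic fibroblast lines (MEFs) that grew out of them. Expression was measured by RNA-seq of poly(A)-selected RNA and reported as FPKM (fragments per kilobase of transcript, scaled to the number of mapped fragments) for 65522 transcription units. The 19919 units with a mean of at least 1 FPKM over the 6 populations were compared on the log2(FPKM + 1) scale, and were read through 46 lists of genes that share a pathway, a complex or a family. The lists and their members were chosen with earlier results of these data known, so their shares of calls and their medians are descriptive. All 6 populations were female, of the C57BL/6 strain, CIZ1 +/+ and untreated, and were collected at 80% confluence. PEFs were taken before passage 5, each from a single embryo, and the MEFs descended from the same 3 embryos. MEFs arose in the same medium, after a phase of slow growth, from colonies that were pooled on re-plating. Each line thus has an unknown clonal make-up, and there was 1 line per embryo.

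Fibroblasts cut out of an embryo divide for a limited number of passages, enter senescence, and give rise to lines once some cells have escaped the arrest. In mouse cells the escape commonly goes with loss of the p53 or the p19Arf and p16Ink4a checkpoints. Freshly plated fibroblasts also take on traits of myofibroblasts, with actin stress fibres, smooth muscle proteins, focal adhesions and a rich extracellular matrix, much of it under the control of serum response factor, YAP and TGF-beta.

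The fibroblast label was checked against 10 markers. Their summed level was 10652 to 10747 FPKM in PEFs and 3097 to 6002 FPKM in MEFs, and 0 of the 10 were called by limma with Benjamini-Hochberg adjustment (5 at an unadjusted p under 0.05). The markers did not all move with the sum. Pdgfra, among those 5, was at 4.59, 7.14 and 2.37 FPKM in PEFs and 25.7, 5.85 and 13.1 in MEFs, with a log2 change of 1.36. Dcn also had a change above 0, at 0.53. Vim, the mesenchymal intermediate filament, was at 2678, 2931 and 2855 FPKM in PEFs and 2289, 1013 and 999.6 in MEFs. Thy1, a surface antigen of many fibroblasts, was at 643, 856 and 979 FPKM in PEFs and 168, 0 and 292 FPKM in MEFs, and was thus listed at 0 in 1 line. Values of PEFs and of MEFs are always given in 1 order of embryos, first E13.1, then E13.8, then E14.4. These are the names of the embryos and of the populations from them, and are not read here as ages. Endothelial markers summed to at most 3.29 FPKM in all 6 populations, with Tie1 listed at 0, and those of endothelial, neural, cartilage and fat cells overlapped between PEFs and MEFs. In every MEF line the summed levels of the fibroblast markers, of the pericyte and smooth muscle markers described beside the contractile genes, and of skeletal muscle, epithelial and mesothelial, and leukocyte markers lay below the PEF range. Skeletal muscle markers summed to 14.02 to 28.5 FPKM in PEFs and 1.72 to 2.95 FPKM in MEFs, with Myod1, Myf5, Myh8 and Ckm listed at 0 throughout. Most of the PEF sum was Des, which is also a contractile gene below, Tnnt2 and Mylpf, and 10 of the 14 markers were under 1 FPKM in all 6 populations. Epithelial and mesothelial markers summed to 30.01 to 33.8 FPKM and 0.873 to 12.9 FPKM, with Krt5 listed at 0. Most of the PEF sum was Krt19, at 29.8, 27.4 and 24.9 FPKM in PEFs and 0.652, 1.08 and 11.6 in MEFs. Of these 10 markers 7 were under 1 FPKM in all 6 populations. Leukocyte markers summed to 17.7 to 33.8 FPKM and 3.56 to 16.3 FPKM, with Aif1 listed at 0. Their members did not move together. Lyz2 was at 20.7, 11.8 and 12.1 FPKM in PEFs and 0.363, 0.903 and 5.93 in MEFs. Cd14 was at 1.63, 1.58 and 1.03 FPKM in PEFs and 1.40, 6.94 and 7.37 in MEFs, with a log2 change of 1.18, and was not called. In bulk RNA, fewer cells of a type and less RNA per cell cannot be told apart, and the part of these cells in the changes below was not tested.

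In all, 1902 units (9.55%) were called at an adjusted p under 0.05 by limma with Benjamini-Hochberg adjustment. They were 572 units higher in MEFs (2.87%) and 1330 lower (6.68%). These shares of all units are the background for the counts of each list and family below. Over all units, 17.3% had all MEF values above all PEF values and 21.4% all below. Where a called gene is said not to overlap between groups, this describes its values and is no added support. PEFs and MEFs of 1 embryo are related, and with the embryo as a block 499 units (2.51%) were called, 94 higher (0.472%) and 405 lower (2.03%), 466 of them shared with the fit without the block. Changes are given as log2 change ± standard error, MEF minus PEF, with 3 populations in each group, and are followed by the adjusted p without and with the block. Where only the log2 change of a called gene is given, a dagger (†) marks a call that held with the block. The other calls in such lists were lost with it. Total FPKM lay at 630108 to 690513 in PEFs and 530202 to 559435 in MEFs, without overlap. The median unit changed by -0.05 with FPKM as deposited and by 0.06 after quantile normalization, which called 982 units higher (4.93%) and 1081 lower (5.43%), so the share of calls that were higher went from 30.1% to 47.6%. MEFs also varied more among themselves, with a median SD of 0.364 on the log2 scale against 0.185 in PEFs. Leaving out 1 PEF population reduced the calls to 62 without E14.4, to 65 without E13.8 and to 70 without E13.1. Of the 127 called genes that were singled out by rule, 14 kept their call whichever population was left out. Leaving out 1 MEF line gave 1296 calls without E13.8, 1808 without E13.1 and 2972 without E14.4.

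**Figure D1:**
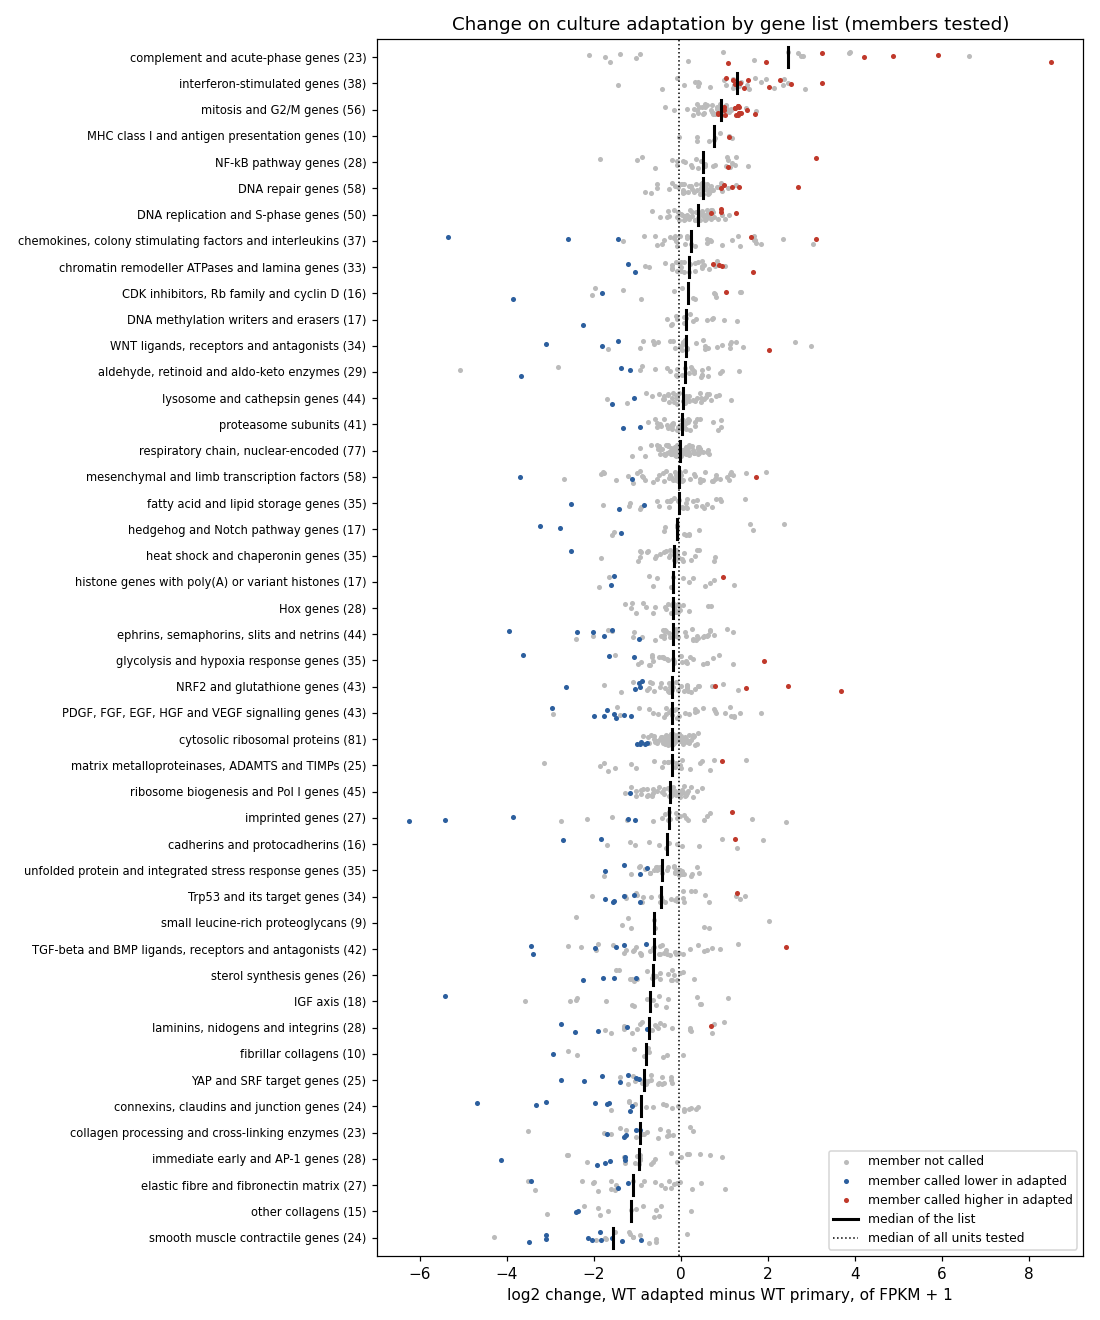
Change of each tested member of the 46 lists on the log2(FPKM + 1) scale, WT adapted minus WT primary (x axis), with lists ordered by their median and the number of tested members in brackets. Grey points are members that were not called, red and blue points those called higher and lower, black ticks the list medians, and the dotted line the median of all units at -0.05. Smooth muscle contractile genes sit lowest, with a median of -1.55, and complement and acute-phase genes highest, with 2.47.

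Genes of the contractile apparatus were lower in MEFs as a list. Of 24 tested, 10 fell and 0 rose (6 fell with the block), against 6.68% of all units that fell, and the median change was -1.55. Without 1 PEF population 2 members were still called, and without 1 MEF line 6 to 13. Myh11, the smooth muscle myosin heavy chain, was at 16.3, 17.9 and 14.7 FPKM in PEFs and 0.741, 0.913 and 0.0619 in MEFs. Myh11 was thus under 1 FPKM in every MEF line and fell with no overlap (log2 change -3.50 ± 0.26, adjusted p = 0.00438, blocked adjusted p = 0.022). Tagln, the actin-binding protein transgelin, was at 2405, 2439 and 3332 FPKM in PEFs and 620.0, 709.9 and 530.4 in MEFs. Tagln remained among the abundant transcripts of MEFs although it fell (log2 change -2.13 ± 0.19, adjusted p = 0.00689, blocked adjusted p = 0.0352). Des, the muscle intermediate filament desmin, was at 13.6, 7.61 and 7.43 FPKM in PEFs and 0, 0 and 0.687 in MEFs, so that it too was under 1 FPKM in MEFs (log2 change -3.10 ± 0.33, adjusted p = 0.00992, blocked adjusted p = 0.0391). Acta2, smooth muscle actin and the usual mark of myofibroblasts, was at 4963, 5484 and 6182 FPKM in PEFs and 1797, 2480.0 and 814 in MEFs. Acta2 fell in the fit without the block and missed the threshold with it (log2 change -1.84 ± 0.40, adjusted p = 0.0396, blocked adjusted p = 0.0687). Mylk, the kinase of myosin light chain, the cross-linker Actn1, the focal adhesion proteins Zyx and Csrp1, the thin filament protein Tpm1 and caldesmon (Cald1) also fell, by log2 changes of -3.09†, -1.58†, -1.87†, -2.05, -1.35 and -0.91. Many of these genes are known targets of serum response factor, whose binding site is the CArG box. A CArG box was found, on either strand, in the promoter windows of 3 of 21 tested members with a RefSeq promoter (14.3%) and in 1.57% of all 27025 promoters, the window running from 250 bases before to 50 bases after the start of the gene. None of the 3 was among the 8 called members with such a window, and sites further away were not searched.

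Pericyte and smooth muscle markers, which overlap with this list, summed to 5074 to 6356 FPKM in PEFs and 822 to 2535 FPKM in MEFs, most of it Acta2, and their part in the result was not tested. Cspg4, the NG2 proteoglycan, was at 32.7, 34.9 and 28.1 FPKM in PEFs and 10.2, 6.31 and 1.19 in MEFs and fell (log2 change -2.54 ± 0.57, adjusted p = 0.0441, blocked adjusted p = 0.0575), whereas Rgs5, a regulator of G protein signalling that marks pericytes, was at 0.483, 0.156 and 0.506 FPKM in PEFs and 21.5, 7.2 and 2.94 in MEFs and rose (log2 change 2.71 ± 0.60, adjusted p = 0.0426, blocked adjusted p = 0.0633).

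Targets of YAP and serum response factor fell in 7 of 25 cases and rose in 0, with a median change of -0.84 (1 with the block, 0 or 1 without 1 PEF population and 4 to 7 without 1 MEF line). Wisp1, a secreted CCN protein, was at 65.3, 79.4 and 133 FPKM in PEFs and 13.4, 22.6 and 19.3 in MEFs. Wisp1 values of MEFs all lay under those of PEFs (log2 change -2.23 ± 0.32, adjusted p = 0.0168, blocked adjusted p = 0.0381). Axl, a receptor tyrosine kinase for Gas6, was at 237, 259.8 and 276 FPKM in PEFs and 123, 130.0 and 145 in MEFs, a smaller change with little spread (log2 change -0.95 ± 0.15, adjusted p = 0.0199, blocked adjusted p = 0.0548). Egr2, a zinc finger factor induced by serum, was at 14.1, 6.37 and 27.8 FPKM in PEFs and 1.34, 1.31 and 0.892 in MEFs (log2 change -2.76 ± 0.48, adjusted p = 0.0248, blocked adjusted p = 0.0548). Ctgf, the connective tissue growth factor, the YAP partner Tead2, the angiomotin Amotl2 and the LIM protein Fhl2 made up the rest, with log2 changes of -1.82, -1.03, -1.22 and -1.39.

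Immediate early genes, which switch on within minutes of a serum or stress signal, gave 6 called members of 28, all of them lower, 5 with the block of which 3 were among those 6, 0 without 1 PEF population and 5 to 11 without 1 MEF line. The median change was -0.95. Klf2, a Krüppel-like factor, was at 21.8, 19.8 and 22.5 FPKM in PEFs and 9.46, 6.69 and 8.73 in MEFs (log2 change -1.28 ± 0.18, adjusted p = 0.0167, blocked adjusted p = 0.0496). The related Klf4 was at 21.2, 30.9 and 31.9 FPKM in PEFs and 5.19, 9.97 and 8.25 in MEFs, again with no overlap (log2 change -1.74 ± 0.28, adjusted p = 0.021, blocked adjusted p = 0.0352). Ier2, another early response gene, was at 54.5, 37.3 and 57.7 FPKM in PEFs and 11.1, 17.4 and 17.8 in MEFs, and its call was lost with the block (log2 change -1.64 ± 0.26, adjusted p = 0.0211, blocked adjusted p = 0.0553). Jun, the AP-1 subunit, Zfp36, which destabilises AU-rich mRNA, and Dusp4, a phosphatase of MAP kinases, fell as well, by log2 changes of -1.28, -1.93 and -4.15†.

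Among extracellular matrix genes both chains of collagen IV fell, while most members of the matrix lists did not pass the test. Col4a1, a chain of the basement membrane collagen IV, was at 397, 405 and 429.8 FPKM in PEFs and 95.5, 68.8 and 75.4 in MEFs. Col4a2, its partner chain, was at 367, 368 and 395 FPKM in PEFs and 88.95, 60.3 and 64.5 in MEFs. Both chains fell to a similar extent, and in both the 3 PEF values and the 3 MEF values were each close together (Col4a1 log2 change -2.36 ± 0.17, adjusted p = 0.00427, blocked adjusted p = 0.0291, and Col4a2 log2 change -2.41 ± 0.19, adjusted p = 0.00489, blocked adjusted p = 0.0294). They were the only called members among 15 tested collagens outside the fibrillar group, whose median was -1.15. The count was also 2 without any 1 PEF population, and 3 to 5 without 1 MEF line. Of 10 fibrillar collagen chains 1 was called. It was Col5a3, a chain of collagen V, at 32.4, 30.1 and 44.2 FPKM in PEFs and 5.66, 5.505 and 1.36 in MEFs (log2 change -2.95 ± 0.43, adjusted p = 0.0176, blocked adjusted p = 0.0523), and the count was 0 without 1 PEF population and 1 to 3 without 1 MEF line. The main chains of collagen I did not pass the test. Col1a1 was at 2861, 2858 and 3059 FPKM in PEFs and 1034, 1231 and 139 in MEFs (log2 change -2.38 ± 0.80, adjusted p = 0.104). Col1a2 was at 1542, 1423 and 1535 FPKM in PEFs and 889, 1349 and 300.3 in MEFs (log2 change -1.07 ± 0.52, adjusted p = 0.216). For both, the E14.4 line stood far below the other MEFs.

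Enzymes that process and cross-link collagen fell in 5 of 23 cases and rose in 0 (1 with the block, 0 without 1 PEF population, 4 or 5 without 1 MEF line), with a median of -0.93. P4ha3, a prolyl hydroxylase subunit, was at 46.5, 59.98 and 56.4 FPKM in PEFs and 23.2, 23.8 and 18.6 in MEFs (log2 change -1.27 ± 0.18, adjusted p = 0.0172, blocked adjusted p = 0.0535). Plod3, a lysyl hydroxylase whose unit also holds a microRNA gene, was at 220.5, 214 and 210.1 FPKM in PEFs and 102, 137 and 101 in MEFs (log2 change -0.93 ± 0.17, adjusted p = 0.028, blocked adjusted p = 0.0675). Bmp1, the protease that trims procollagen, was at 131, 162 and 196 FPKM in PEFs and 51.7, 58.4 and 87.3 in MEFs (log2 change -1.31 ± 0.26, adjusted p = 0.032, blocked adjusted p = 0.0471). PEF and MEF values did not overlap for any of the 3. The procollagen enhancer Pcolce2 and the lysyl oxidase Loxl4 completed the list, at log2 changes of -1.70 and -1.03.

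Among 27 genes of elastic fibres and the fibronectin matrix 3 fell and 0 rose (3 fell with the block, 2 of them in both fits), with a median of -1.10, and the count was 1 without 1 PEF population and 3 to 8 without 1 MEF line. Mfap4, a glycoprotein of microfibrils, was at 30.2, 30.5 and 42.5 FPKM in PEFs and 2.59, 1.98 and 2.05 in MEFs. Mfap4 lay among the strongest calls of all units and kept its call whichever population was left out (log2 change -3.45 ± 0.20, adjusted p = 0.00202, blocked adjusted p = 0.0226). Thbs1, thrombospondin 1, a matrix protein that also activates latent TGF-beta, was at 2852, 2834 and 3167 FPKM in PEFs and 1309, 1066 and 907 in MEFs (log2 change -1.45 ± 0.17, adjusted p = 0.0122, blocked adjusted p = 0.0439). Fbln2, fibulin 2, was at 1119, 1269 and 991 FPKM in PEFs and 698, 389 and 419.5 in MEFs, and was not called with the block (log2 change -1.21 ± 0.25, adjusted p = 0.0372, blocked adjusted p = 0.0662). Of 9 small leucine-rich proteoglycans 0 were called by limma without the block, 1 at an unadjusted p under 0.05 (1 fell with the block). Bgn, biglycan, was at 1539, 1641 and 1654 FPKM in PEFs and 1515, 807 and 996 in MEFs (log2 change -0.59 ± 0.24, adjusted p = 0.154). Dcn, decorin, was at 24.1, 34.03 and 31.1 FPKM in PEFs and 0.984, 46.5 and 905 in MEFs, from under 1 to 905 FPKM between lines (log2 change 0.53 ± 2.00, adjusted p = 0.879).

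Laminins, nidogens and integrins gave 5 lower and 1 higher of 28, or 3 lower with the block, and 0 without 1 PEF population and 4 to 11 without 1 MEF line. All 6 were integrins, the receptors that tie cells to matrix. Itgb3, the beta chain of the vitronectin receptor, was at 12.3, 15.4 and 15.9 FPKM in PEFs and 1.305, 0.423 and 2.64 in MEFs (log2 change -2.76 ± 0.35, adjusted p = 0.0138, blocked adjusted p = 0.0391). Itgav, its alpha chain, was at 127, 118 and 106 FPKM in PEFs and 49.8, 53.9 and 43.1 in MEFs (log2 change -1.24 ± 0.16, adjusted p = 0.0146, blocked adjusted p = 0.0484). Both chains of that receptor therefore fell, without overlap of the groups. Itga6, a laminin receptor chain, was at 15.8, 14.5 and 16.9 FPKM in PEFs and 3.11, 2.43 and 5.31 in MEFs (log2 change -1.91 ± 0.25, adjusted p = 0.015, blocked adjusted p = 0.0401). Itga5 and Itgb1, which together bind fibronectin, had log2 changes of -2.44 and -0.79. Itgb7, a chain best known from lymphocytes, rose from a low level, at 3.502, 3.96 and 3.72 FPKM in PEFs and 6.69, 6.95 and 6.21 in MEFs (log2 change 0.69 ± 0.16, adjusted p = 0.0443, blocked adjusted p = 0.0975). Of 25 matrix metalloproteinases, ADAMTS proteases and their inhibitors only Mmp19 was called, which was at 10.9, 11.7 and 9.81 FPKM in PEFs and 22.1, 17.5 and 25.8 in MEFs (log2 change 0.94 ± 0.19, adjusted p = 0.0367, blocked adjusted p = 0.0874, and 0 members without 1 PEF population, 0 to 4 without 1 MEF line). The inhibitors Timp1 and Timp2 were abundant and not called. Timp1 was at 1232, 1087 and 1033 FPKM in PEFs and 99, 450.4 and 758 in MEFs (log2 change -1.78 ± 0.70, adjusted p = 0.145). Timp2 was at 395, 393 and 303 FPKM in PEFs and 363, 441 and 236 in MEFs (log2 change -0.10 ± 0.26, adjusted p = 0.815).

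**Figure D2:**
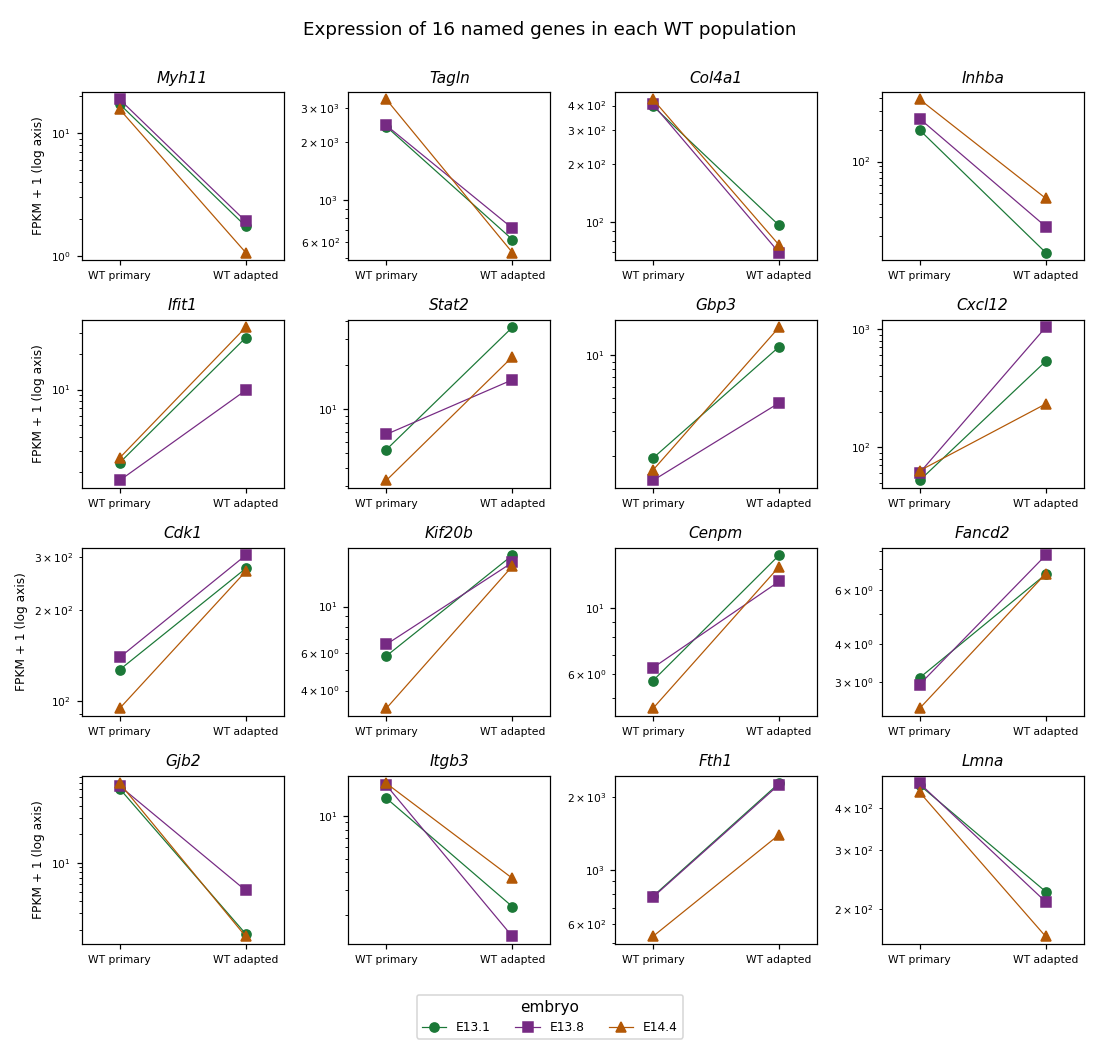
FPKM + 1 on a log axis for 16 named genes in WT primary and WT adapted populations, with a line joining the populations of each embryo (circle E13.1, square E13.8, triangle E14.4). In all 16 panels the 3 adapted values lie on one side of the 3 primary values. The 16 genes were all called in these same populations, so this separation follows largely from their choice. Over all units 17.3% had all adapted values above and 21.4% all below. Myh11 reaches 0.0619 FPKM in the E14.4 line.

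Genes of cell contacts were called lower too. Of 24 connexins, claudins and other junction genes 8 fell and 0 rose (3 with the block, 0 or 1 without 1 PEF population, 6 to 9 without 1 MEF line), with a median of -0.93. Gjb2, connexin 26, was at 59.5, 63.7 and 67.9 FPKM in PEFs and 0.806, 4.16 and 0.695 in MEFs. Gjb2 was plainly expressed in PEFs and at a few FPKM at most in MEFs (log2 change -4.69 ± 0.43, adjusted p = 0.00712, blocked adjusted p = 0.0291). Gjb5, a further connexin, was at 2.98, 2.89 and 1.47 FPKM in PEFs and 0.134, 0 and 0.0708 in MEFs (log2 change -1.66 ± 0.27, adjusted p = 0.0218, blocked adjusted p = 0.0576). Jup, plakoglobin, which links cadherins to the cytoskeleton, was at 55.5, 52.6 and 63.6 FPKM in PEFs and 14.4, 2.56 and 2.46 in MEFs (log2 change -3.34 ± 0.58, adjusted p = 0.0248, blocked adjusted p = 0.051). Jup had its highest MEF value in the E13.1 line. The adhesion molecules Alcam and Ncam1, the nectins Pvrl2 and Pvrl3 and the tight junction protein F11r fell by log2 changes of -3.11, -1.71†, -1.12, -1.16 and -1.97†. Of 16 cadherins and protocadherins 2 fell, in both fits, and 1 rose in the fit without the block (0 called without 1 PEF population, 3 to 6 without 1 MEF line). Pcdh19 was at 17.3, 16.3 and 12.1 FPKM in PEFs and 2.15, 2.71 and 0.279 in MEFs (log2 change -2.71 ± 0.42, adjusted p = 0.0199, blocked adjusted p = 0.0352). Pcdh9 was at 2.66, 3.44 and 4.45 FPKM in PEFs and 0, 0.131 and 0.709 in MEFs (log2 change -1.84 ± 0.29, adjusted p = 0.0207, blocked adjusted p = 0.046), and Pcdhb17, in a unit shared with Pcdhb18, was at 1.58, 0.962 and 1.54 FPKM in PEFs and 6.22, 4.92 and 3.001 in MEFs (log2 change 1.25 ± 0.27, adjusted p = 0.0421, blocked adjusted p = 0.0758).

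Ephrins, semaphorins, slits and netrins, the guidance cues and their receptors, fell in 6 of 44 cases and rose in 0 (2 with the block, 0 without 1 PEF population, 2 to 7 without 1 MEF line). Their median, -0.19, was close to that of all units. Sema7a, a membrane-anchored semaphorin that binds integrins, was at 34.4, 21.1 and 36.1 FPKM in PEFs and 0.128, 2.41 and 1.05 in MEFs (log2 change -3.95 ± 0.43, adjusted p = 0.0107, blocked adjusted p = 0.0406). Epha2, an ephrin receptor, was at 35.01, 29.1 and 37.3 FPKM in PEFs and 6.398, 15.3 and 7.58 in MEFs (log2 change -1.78 ± 0.32, adjusted p = 0.0269, blocked adjusted p = 0.0636), and Epha3 was at 3.21, 2.57 and 7.91 FPKM in PEFs and 0.323, 0.489 and 0.0242 in MEFs (log2 change -2.02 ± 0.39, adjusted p = 0.031, blocked adjusted p = 0.0721). Efnb1, Epha1 and the plexin Plxna1 had log2 changes of -2.38, -1.59† and -0.97.

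In the opposite direction, genes of innate defence were called higher in MEFs. As with all lists, theirs were chosen with earlier results of these data known, so the shares below are descriptive. Of 23 complement and acute-phase genes 7 rose and 0 fell without the block, against 2.87% of all units that rose, and 7 rose with it, against 0.472%. The fits shared 6 of these calls. Their median was 2.47, 2 were called without 1 PEF population and 5 to 11 without 1 MEF line. Beside Lcn2, Clu and C3, the first proteases of the classical pathway moved. C1ra was at 3.57, 4.51 and 2.44 FPKM in PEFs and 75.8, 27.7 and 31.4 in MEFs (log2 change 3.23 ± 0.41, adjusted p = 0.0138, blocked adjusted p = 0.0383). C1s1, the protease that C1r activates, was at 3.92, 4.24 and 1.48 FPKM in PEFs and 162, 59.6 and 38.9 in MEFs (log2 change 4.20 ± 0.56, adjusted p = 0.015, blocked adjusted p = 0.0291). Both were thus at a few FPKM in PEFs and at 27.7 FPKM or more in every MEF line. Lbp, which binds bacterial lipopolysaccharide, was at 0.0208, 1.22 and 0 FPKM in PEFs and 4.78, 5.77 and 2.32 in MEFs (log2 change 1.95 ± 0.42, adjusted p = 0.0408, blocked adjusted p = 0.0496). Serpina3n, a protease inhibitor of the acute phase, was at 0.543, 0.853 and 0.435 FPKM in PEFs and 2.18, 2.44 and 2.499 in MEFs (log2 change 1.07 ± 0.21, adjusted p = 0.0316, blocked adjusted p = 0.0779).

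Interferon-stimulated genes, which cells make in response to viral nucleic acid or to interferon, were higher by their median as well. Of 38 tested, 10 rose and 0 fell (4 rose with the block, 2 of them among the 10), the median change was 1.30, and 29 had all MEF values above all PEF values, while 0 had them all below. Over all units these shares were 17.3% above and 21.4% below. No member was called without 1 PEF population, and 4 to 19 without 1 MEF line. The E13.8 line was the lowest of the 3, with a mean log2(FPKM + 1) over the 38 members of 2.55 against 3.86 and 3.84 in the E13.1 and E14.4 lines, and 1.96 to 2.24 in PEFs. Ifit1, which binds viral RNA, was at 1.398, 0.7001 and 1.64 FPKM in PEFs and 26.5, 8.85 and 32.6 in MEFs (log2 change 3.24 ± 0.48, adjusted p = 0.0181, blocked adjusted p = 0.0327). Stat2, a factor that interferon activates, was at 4.29, 5.73 and 2.27 FPKM in PEFs and 35.1, 14.8 and 21.7 in MEFs (log2 change 2.27 ± 0.39, adjusted p = 0.0245, blocked adjusted p = 0.0548). Gbp3, a guanylate-binding protein, was at 0.931, 0.355 and 0.595 FPKM in PEFs and 10.4, 3.65 and 14.5 in MEFs (log2 change 2.54 ± 0.45, adjusted p = 0.0265, blocked adjusted p = 0.0471). The E13.8 line was the lowest of the MEFs for all 3. Irf9, a partner of Stat2, the RNA sensors Ddx58, Ifih1 and Dhx58, and Irgm1 and Ifi44 also rose, by log2 changes of 1.19, 1.03, 1.44, 1.25, 1.54 and 1.36.

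These genes are known to carry the interferon-stimulated response element (ISRE), here searched as GAAANNGAAA on both strands. It was in the promoter windows of 13 of 26 tested members with a RefSeq promoter (GRCm38.p6) and in 3.49% of all 27025 promoters. Of 8 called members with a window, 6 had it (Ddx58, Gbp3, Ifih1, Ifit1, Irgm1 and Stat2). The windows of the 3 genes described above, and of Irgm1 as an example with the match on the strand of the gene, are shown as 30 bases on the strand of the gene, with the match in capitals, which reads as its reverse complement where it lies on the other strand.
Ifit1, chr19:34640775-34640804, plus strand: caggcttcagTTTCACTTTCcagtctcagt
Ifit1, chr19:34640794-34640823, plus strand: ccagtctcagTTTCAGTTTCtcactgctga
Gbp3, chr3:142559989-142560018, plus strand: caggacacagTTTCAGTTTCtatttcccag
Stat2, chr10:128270266-128270295, plus strand: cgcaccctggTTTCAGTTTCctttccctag
Irgm1, chr11:48871425-48871454, minus strand: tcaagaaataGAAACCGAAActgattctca
The matches began 104 and 85 bases before the start of Ifit1, 45 and 39 before that of Gbp3, 222 before that of Stat2 and 30 and 24 before that of Irgm1. The matches of Gbp3 and of Irgm1 overlap, and 1 of each pair is shown. A match is only a match of letters, and binding was not measured.

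Other immune genes moved singly. Of 10 MHC class I and antigen presentation genes 1 was called, the lipid-presenting Cd1d1, at 1.22, 1.34 and 1.35 FPKM in PEFs and 2.898, 4.11 and 4.99 in MEFs (log2 change 1.10 ± 0.22, adjusted p = 0.0343, blocked adjusted p = 0.0698, and 0 without 1 PEF population). B2m, the light chain of class I, was at 854, 877 and 1133 FPKM in PEFs and 1508, 1004 and 2788 in MEFs (log2 change 0.77 ± 0.37, adjusted p = 0.212). H2-D1, a heavy chain, was at 77.8, 76.3 and 107 FPKM in PEFs and 72.5, 41.6 and 186 in MEFs (log2 change -0.06 ± 0.52, adjusted p = 0.954). Both were highest in the E14.4 line. Of 37 chemokines, colony stimulating factors, interleukins and their receptors 2 rose and 3 fell, or 1 and 1 with the block, and 0 without 1 PEF population and 3 to 12 without 1 MEF line. Cxcl12, which guides haematopoietic cells to their stroma, was at 51.2, 59.5 and 62.1 FPKM in PEFs and 533, 1035 and 231 in MEFs (log2 change 3.11 ± 0.51, adjusted p = 0.0218, blocked adjusted p = 0.0496). Osmr, the oncostatin M receptor, was at 22.2, 26.7 and 11.9 FPKM in PEFs and 65.8, 61.7 and 55.1 in MEFs (log2 change 1.61 ± 0.30, adjusted p = 0.0295, blocked adjusted p = 0.0522). Cxcl14 was at 133, 164 and 81.3 FPKM in PEFs and 0, 18.6 and 0.367 in MEFs, so a chemokine of high level in PEFs was close to 0 in 2 of 3 MEF lines (log2 change -5.35 ± 1.10, adjusted p = 0.0362, blocked adjusted p = 0.0497). The cytokine Il11 was at 4.45, 13.2 and 15.3 FPKM in PEFs and 0.491, 0.138 and 2.3 in MEFs (log2 change -2.60 ± 0.55, adjusted p = 0.0388, blocked adjusted p = 0.0505) and the chemokine Ccl17 at 3.96, 2.88 and 4.44 FPKM in PEFs and 1.33, 0.779 and 0.237 in MEFs (log2 change -1.45 ± 0.29, adjusted p = 0.0354, blocked adjusted p = 0.0721). Of 28 genes of the NF-kB pathway 2 rose (1 with the block, 0 without 1 PEF population, 3 to 5 without 1 MEF line). Tlr2, a receptor for bacterial lipoproteins, was at 0.326, 0.6897 and 0.616 FPKM in PEFs and 18.2, 12.5 and 7.82 in MEFs (log2 change 3.10 ± 0.31, adjusted p = 0.00907, blocked adjusted p = 0.0352). Sod2, the mitochondrial superoxide dismutase that NF-kB induces, was at 13.05, 12.8 and 11.7 FPKM in PEFs and 24.7, 30.1 and 27.6 in MEFs (log2 change 1.07 ± 0.16, adjusted p = 0.0181, blocked adjusted p = 0.0575).

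Genes of cell division also gave calls that were higher in MEFs. Of 56 genes of mitosis and the G2/M transition 17 rose and 0 fell (7 rose with the block, 6 of them among the 17), with a median of 0.92, and 40 had all MEF values above all PEF values. Over all units 2.87% rose and 17.3% had all MEF values above all PEF values. No member was called without 1 PEF population, and 4 to 23 without 1 MEF line. Cdk1, the kinase that drives entry into mitosis, was at 126, 138 and 93.2 FPKM in PEFs and 275, 304 and 268 in MEFs (log2 change 1.26 ± 0.19, adjusted p = 0.0193, blocked adjusted p = 0.0489). Cenpm, a centromere protein, was at 4.72, 5.32 and 3.61 FPKM in PEFs and 14.1, 11.3 and 12.8 in MEFs (log2 change 1.31 ± 0.19, adjusted p = 0.0175, blocked adjusted p = 0.0538). Kif20b, a kinesin of cytokinesis, was at 4.83, 5.61 and 2.29 FPKM in PEFs and 16.5, 15.2 and 14.5 in MEFs (log2 change 1.70 ± 0.28, adjusted p = 0.0228, blocked adjusted p = 0.0499). In all 3 genes PEFs of E14.4 were the lowest of the 6 populations and the MEF lines were close to each other. Called as well were the kinetochore genes Ndc80 and Nuf2, the spindle checkpoint kinases Bub1, Bub1b and Ttk, the condensin subunits Smc4 and Ncapg, the kinesins Kif4, Kif11, Kif15 and Kif20a, Anln, Plk4 and Cdc25c, with log2 changes from 0.85 (Anln) to 1.51 (Nuf2). Of these, Smc4, Ncapg, Bub1b and Cdc25c kept their call with the block.

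Promoters of such genes are known to carry the cell cycle genes homology region (CHR), here searched as TTTGAA on both strands. It was in the windows of 33 of 47 tested members with a promoter (70.2%) and in 18.1% of all promoters, and in 10 of the 14 called members with a window. Windows of Cdk1 and Kif20b are shown in the same way.
Cdk1, chr10:69352966-69352995, minus strand: ctgattggctccTTTGAAcgtctacgtgca
Cdk1, chr10:69352910-69352939, minus strand: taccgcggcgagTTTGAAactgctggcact
Kif20b, chr19:34922353-34922382, plus strand: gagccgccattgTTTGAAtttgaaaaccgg
The matches of Cdk1 began 71 and 15 bases before its start, and that of Kif20b at base 8 of the transcript, followed directly by another copy.

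DNA replication genes rose in 4 of 50 cases and fell in 0 (0 with the block, 0 without 1 PEF population, 3 or 4 without 1 MEF line), with a median of 0.39. Pole, the catalytic subunit of polymerase epsilon, was at 5.97, 6.08 and 5.104 FPKM in PEFs and 11.5, 12.1 and 11.3 in MEFs (log2 change 0.91 ± 0.16, adjusted p = 0.0243, blocked adjusted p = 0.0662). Prim1, the primase, was at 16.5, 13.1 and 9.92 FPKM in PEFs and 30.03, 29.6 and 38.2 in MEFs (log2 change 1.26 ± 0.23, adjusted p = 0.027, blocked adjusted p = 0.0706). Slbp, which binds the stem-loop of histone mRNA, was at 27.2, 24.4 and 23.7 FPKM in PEFs and 44.2, 36.7 and 43.3 in MEFs (log2 change 0.70 ± 0.16, adjusted p = 0.0451, blocked adjusted p = 0.0953). Groups did not overlap for any of the 3. The sliding clamp Pcna was the other called member, with a log2 change of 0.92. DNA repair genes rose in 5 of 58 cases and fell in 0 (0 with the block, 0 without 1 PEF population, 4 to 6 without 1 MEF line). Fancd2, of the Fanconi pathway, was at 2.09, 1.94 and 1.46 FPKM in PEFs and 5.73, 6.77 and 5.76 in MEFs (log2 change 1.33 ± 0.18, adjusted p = 0.0155, blocked adjusted p = 0.0504). Rad51b, of homologous recombination, was at 1.32, 0.371 and 0.172 FPKM in PEFs and 4.55, 13.4 and 11.7 in MEFs (log2 change 2.70 ± 0.44, adjusted p = 0.0216, blocked adjusted p = 0.0621). Xrcc5, the Ku80 end-binding protein, was at 6.78, 7.61 and 6.22 FPKM in PEFs and 12.5, 17.3 and 14.1 in MEFs (log2 change 0.98 ± 0.18, adjusted p = 0.0294, blocked adjusted p = 0.0632). Rad51c, like Rad51b of homologous recombination, had a log2 change of 1.16.

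Inhibitors of the cell cycle and targets of p53 gave calls in both directions. Of 16 CDK inhibitors, Rb family members and D cyclins 2 fell, in both fits, and 1 rose in the fit without the block, with 0 called without 1 PEF population. Cdkn1c, the imprinted inhibitor p57, was at 26.9, 18.9 and 26.6 FPKM in PEFs and 0.259, 2.95 and 0 in MEFs (log2 change -3.86 ± 0.52, adjusted p = 0.015, blocked adjusted p = 0.048). Ccnd2, cyclin D2, was at 165, 181 and 158 FPKM in PEFs and 30.6, 57.3 and 59.03 in MEFs (log2 change -1.81 ± 0.27, adjusted p = 0.0193, blocked adjusted p = 0.0484). Rbl1, the pocket protein p107, was at 4.56, 4.58 and 3.1 FPKM in PEFs and 12.5, 7.85 and 8.08 in MEFs (log2 change 1.03 ± 0.24, adjusted p = 0.0476, blocked adjusted p = 0.0702). Of 34 members of the list of Trp53 and its targets 6 fell and 1 rose (1 fell with the block, 0 called without 1 PEF population, 5 to 7 without 1 MEF line). Gdf15, a stress-induced TGF-beta family cytokine, was at 3.58, 3.02 and 2.86 FPKM in PEFs and 0.545, 0.0902 and 0.115 in MEFs (log2 change -1.75 ± 0.24, adjusted p = 0.0151, blocked adjusted p = 0.0481). Phlda3, which restrains Akt, was at 184, 199 and 172 FPKM in PEFs and 79.7, 42.9 and 72.6 in MEFs (log2 change -1.54 ± 0.26, adjusted p = 0.0225, blocked adjusted p = 0.0569). Aen, an apoptotic nuclease, was at 43.4, 50.1 and 50.6 FPKM in PEFs and 21.5, 12.8 and 23.2 in MEFs (log2 change -1.32 ± 0.25, adjusted p = 0.0302, blocked adjusted p = 0.0645). The apoptosis genes Bax and Bbc3 and the sestrin Sesn2 had log2 changes of -1.08, -1.55 and -0.95. Ckap2, a spindle protein that p53 is known to regulate, was at 15.5, 16.7 and 8.76 FPKM in PEFs and 38.2, 27.4 and 35.7 in MEFs and rose (log2 change 1.28 ± 0.28, adjusted p = 0.0408, blocked adjusted p = 0.0787). No coding change of any checkpoint gene was assessed, since only FPKM were used.

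**Figure D3:**
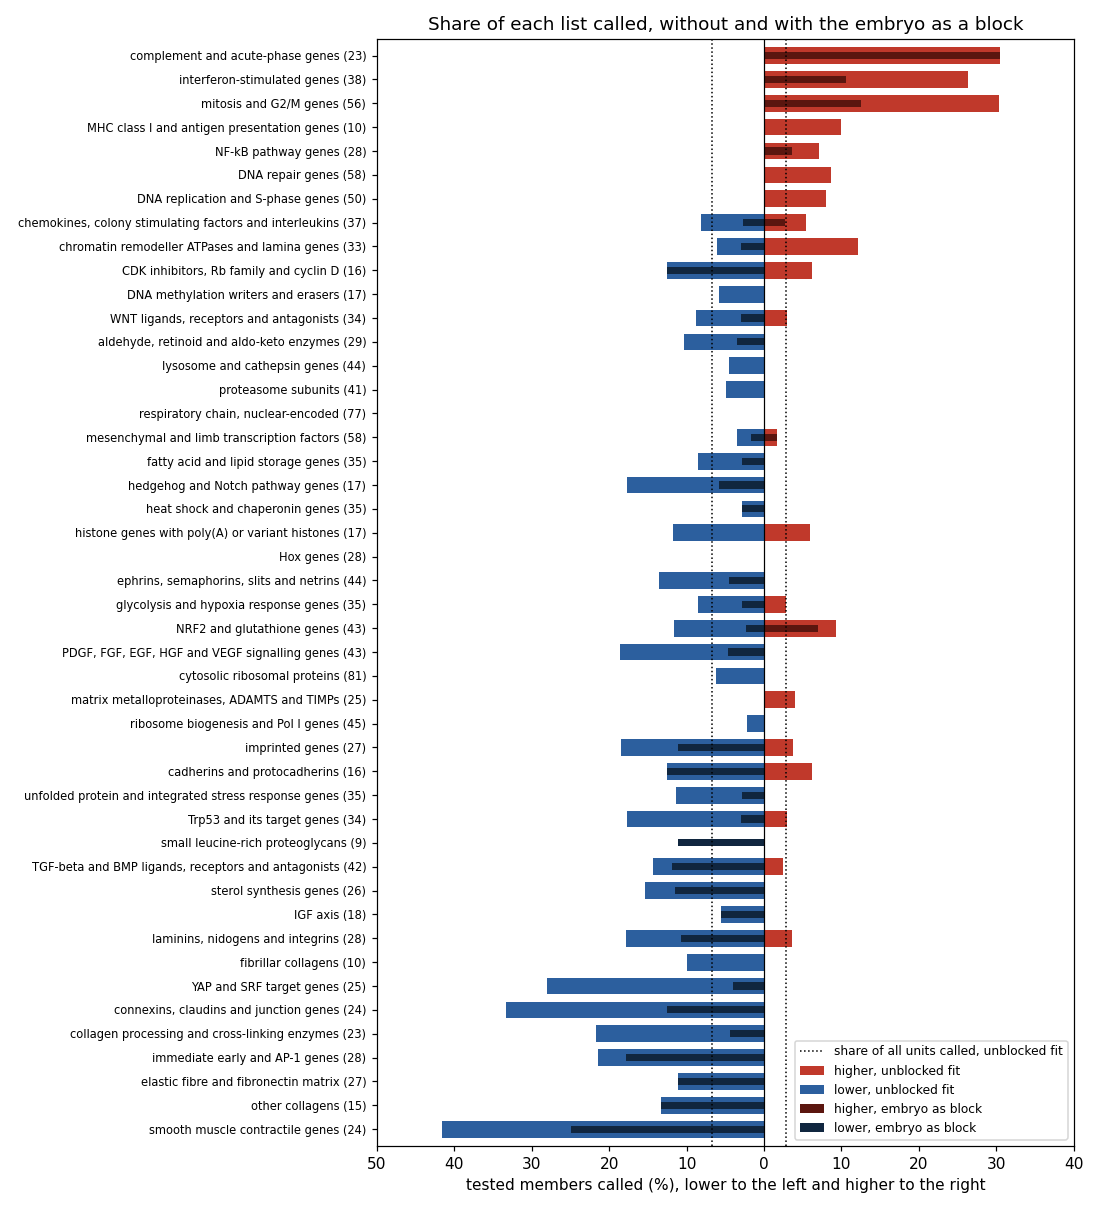
Percent of the tested members of each list called lower (bars to the left) and higher (bars to the right), without (wide, light bars) and with (narrow, dark bars) the embryo as a block. Dotted lines mark the shares of all units, 6.68% lower and 2.87% higher. Both fits called 6 complement genes, 2 interferon-stimulated genes, 6 mitosis genes and 6 contractile genes.

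The cell cycle lists were then set beside the same step in CIZ1 null cells, 3 PEF populations (E13.15, E14.2 and E13.17) and the 3 MEF lines of the same embryos. CIZ1 null cells carry a gene trap on both alleles of Ciz1, and E13.17 also had an inducible GFP-CIZ1 transgene that was not induced. CIZ1 is a nuclear matrix protein with a part in DNA replication and in the inactive X chromosome. No unit of 20046 was called for a difference in the effect of adaptation between genotypes by limma, and 928 (4.63%) had an unadjusted p under 0.05. Of the 56 mitosis genes 42 had an unadjusted p under 0.05, in each case with the WT change above the CIZ1 null change, and 0 passed the adjustment (lowest adjusted p = 0.996). The median change of these genes was 0.92 in WT and -1.14 in CIZ1 null cells. Their mean log2(FPKM + 1) was 3.97, 4.06 and 3.41 in WT PEFs, 4.83, 4.78 and 4.48 in WT MEFs and 3.80 to 4.03 in CIZ1 null PEFs. In CIZ1 null MEFs it was 4.345 for E13.15, 1.48 for E13.17 and 2.33 for E14.2. E13.15 thus lay near the WT lines and the other two far below every other population. Without the E13.15 line 234 units (1.16%) and 47 of the 56 mitosis genes were called (lowest adjusted p = 0.0057), and without any other population 0 mitosis genes were called, with 16 to 38 at an unadjusted p under 0.05. DNA replication genes split the same way, at 4.66, 2.49 and 2.95 in the CIZ1 null lines and 4.33 to 4.63 in the WT lines, with 13 of 50 at an unadjusted p under 0.05 and, without the E13.15 line, 24 of 50 called.

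**Figure D4:**
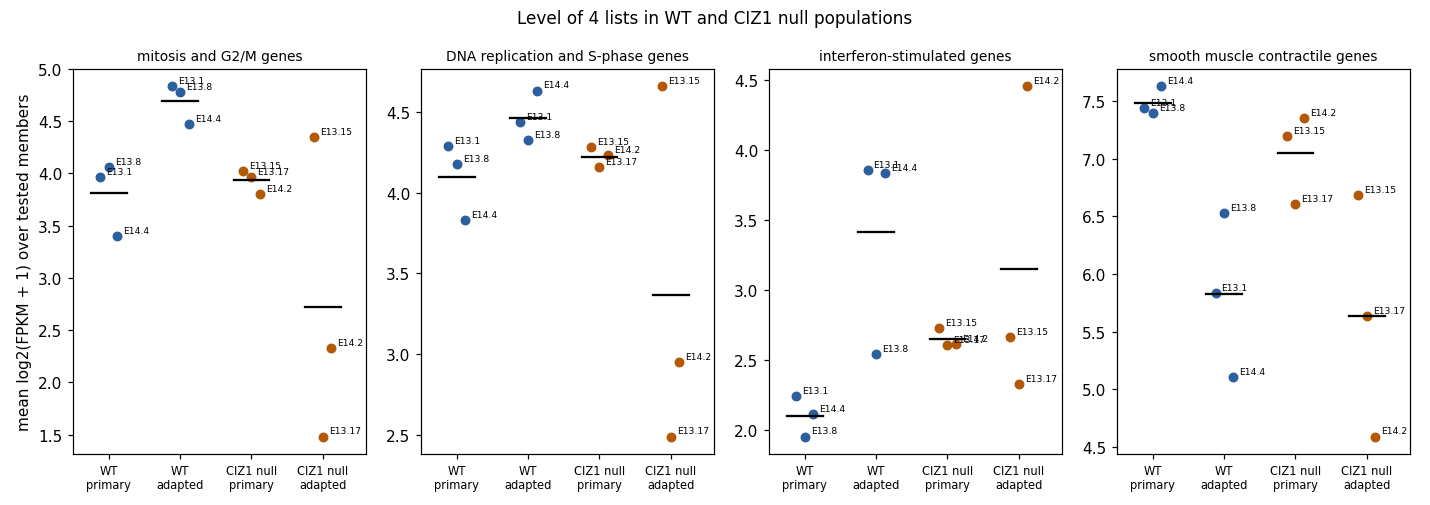
Mean log2(FPKM + 1) over the tested members of 4 lists (y axis) in each WT (blue) and CIZ1 null (orange) population, labelled by embryo, with a bar at the mean of each group. The E13.17 and E14.2 CIZ1 null lines lie at 1.48 and 2.33 for mitosis genes, below the 4.48 to 4.83 of the WT lines, while contractile genes are lower in the adapted lines of both genotypes on average.

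The nuclear lamina and chromatin list had 4 higher and 2 lower of 33, with 1 lower with the block, 0 without 1 PEF population and 3 to 6 without 1 MEF line. Lmna, which encodes lamins A and C, was at 467, 473 and 445 FPKM in PEFs and 224, 209 and 164 in MEFs (log2 change -1.22 ± 0.16, adjusted p = 0.0152, blocked adjusted p = 0.0484). Tmpo, the lamina-associated protein LAP2, was at 34.3, 36.4 and 36.4 FPKM in PEFs and 59.4, 74.5 and 64.7 in MEFs (log2 change 0.87 ± 0.16, adjusted p = 0.0271, blocked adjusted p = 0.0697), and the nuclear envelope spectrin Syne1 at 4.73, 5.41 and 5.34 FPKM in PEFs and 13.7, 8.33 and 10.8 in MEFs (log2 change 0.94 ± 0.21, adjusted p = 0.0443, blocked adjusted p = 0.0915). The 2 alternative ATPases of the BAF remodelling complex moved apart. Smarca2 was at 12.9, 10.1 and 10.5 FPKM in PEFs and 58.8, 21.4 and 41.5 in MEFs (log2 change 1.67 ± 0.36, adjusted p = 0.0409, blocked adjusted p = 0.0553). Smarca4 was at 10.8, 12.4 and 8.599 FPKM in PEFs and 4.18, 5.74 and 3.71 in MEFs (log2 change -1.07 ± 0.22, adjusted p = 0.0359, blocked adjusted p = 0.0556). The unblocked test called both, and neither was called with the block. Matr3, of the nuclear matrix, was the fourth higher member, at 0.74. Of 17 histone genes with poly(A) or variant histones 1 rose and 2 fell (0 with the block, 0 without 1 PEF population). H2afy2, a macroH2A variant, was at 13.03, 13.6 and 12.9 FPKM in PEFs and 34.1, 26.2 and 21.1 in MEFs (log2 change 0.96 ± 0.21, adjusted p = 0.0401, blocked adjusted p = 0.0776). H2afj was at 128, 120.4 and 94.5 FPKM in PEFs and 48.3, 24.5 and 47.3 in MEFs (log2 change -1.54 ± 0.30, adjusted p = 0.0314, blocked adjusted p = 0.064). Hist2h3c2, in a unit shared with other histone genes, was at 11.3, 14.2 and 7.87 FPKM in PEFs and 1.61, 4.07 and 3.35 in MEFs (log2 change -1.61 ± 0.32, adjusted p = 0.034, blocked adjusted p = 0.0587). Of 17 writers, readers and erasers of DNA methylation only Gadd45g was called, at 183, 171 and 369.7 FPKM in PEFs and 43.1, 91.8 and 26.3 in MEFs (log2 change -2.24 ± 0.50, adjusted p = 0.044, blocked adjusted p = 0.0921, 0 members with the block or without 1 PEF population). Mbd2, which binds methylated DNA, was at 50.6, 38.95 and 51.2 FPKM in PEFs and 53.3, 38.6 and 55.9 in MEFs (log2 change 0.06 ± 0.21, adjusted p = 0.871). Mbd3, its relative, was at 107, 104 and 92.5 FPKM in PEFs and 63.05, 111 and 93.9 in MEFs (log2 change -0.22 ± 0.23, adjusted p = 0.573).

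Among signalling pathways, TGF-beta and BMP genes had 6 lower and 1 higher of 42, or 5 lower with the block, 1 called without 1 PEF population and 6 to 13 without 1 MEF line, and a median of -0.63. Tgfb1, the ligand, was at 37.7, 44.3 and 67.2 FPKM in PEFs and 8.89, 10.04 and 16.9 in MEFs (log2 change -1.98 ± 0.31, adjusted p = 0.0207, blocked adjusted p = 0.0326). Inhba, the activin subunit, was at 198, 253 and 385 FPKM in PEFs and 12.9, 23.4 and 44.04 in MEFs (log2 change -3.44 ± 0.46, adjusted p = 0.0151, blocked adjusted p = 0.022). In both the highest MEF value lay well under the lowest PEF value. On the receptor side, Eng, endoglin, was at 3.99, 6.18 and 6.35 FPKM in PEFs and 0.982, 1.41 and 1.48 in MEFs (log2 change -1.49 ± 0.23, adjusted p = 0.0197, blocked adjusted p = 0.0471), Acvr2a had a log2 change of -0.80, and Tgfbr3, betaglycan, was at 3.26, 5.34 and 1.58 FPKM in PEFs and 15.3, 20.6 and 28.9 in MEFs and rose (log2 change 2.41 ± 0.38, adjusted p = 0.0207, blocked adjusted p = 0.0553). Bmp1, described above, was also among the lower members.

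WNT genes gave 3 lower and 1 higher of 34 (1 lower with the block, 0 or 1 called without 1 PEF population, 1 to 9 without 1 MEF line). The 3 that fell were ligands, and 21 of the 34 members had a change above 0. Wnt11 was at 5.61, 13.6 and 17.98 FPKM in PEFs and 0.508, 0.8895 and 0.0219 in MEFs (log2 change -3.10 ± 0.44, adjusted p = 0.0167, blocked adjusted p = 0.0484). Wnt9a was at 3.32, 2.63 and 3.57 FPKM in PEFs and 1.14, 0.133 and 0.469 in MEFs (log2 change -1.44 ± 0.29, adjusted p = 0.0339, blocked adjusted p = 0.0605). Wnt4 was at 1.18, 3.696 and 5.22 FPKM in PEFs and 0.0319, 0.155 and 0.232 in MEFs (log2 change -1.81 ± 0.41, adjusted p = 0.0435, blocked adjusted p = 0.0624). Sfrp1, a secreted antagonist, was at 6.74, 13.99 and 11.05 FPKM in PEFs and 62.2, 48.6 and 28.6 in MEFs (log2 change 2.02 ± 0.36, adjusted p = 0.0268, blocked adjusted p = 0.0627) and rose. In the hedgehog and Notch list 3 of 17 fell (1 with the block, 0 or 1 without 1 PEF population), all of the Notch pathway. The ligand Jag1 was at 15.8, 16.7 and 50.3 FPKM in PEFs and 1.02, 4.101 and 0.746 in MEFs (log2 change -3.24 ± 0.58, adjusted p = 0.0265, blocked adjusted p = 0.0621). Its downstream repressors were Hes1, at 46.5, 45.8 and 92.2 FPKM in PEFs and 5.77, 7.99 and 9.32 in MEFs (log2 change -2.79 ± 0.32, adjusted p = 0.0122, blocked adjusted p = 0.0291), and Hey1, at 1.73, 1.802 and 2.24 FPKM in PEFs and 0.254, 0.0698 and 0.0445 in MEFs (log2 change -1.38 ± 0.22, adjusted p = 0.0215, blocked adjusted p = 0.0663). Of 43 PDGF, FGF, EGF, HGF and VEGF signalling genes 8 fell and 0 rose (2 with the block, 0 without 1 PEF population, 7 to 13 without 1 MEF line). They were the ligands Pdgfa, Pdgfc and Fgf2, the FGF family member Fgf13 and the VEGF receptors Flt1 and Flt4. The feedback inhibitors Spry1 and Spry4 made up the rest. Fgf13 was at 3.42, 3.92 and 2.96 FPKM in PEFs and 0, 0 and 0.333 in MEFs (log2 change -2.01 ± 0.23, adjusted p = 0.0122, blocked adjusted p = 0.048). Flt4 was at 4.05, 4.58 and 7.04 FPKM in PEFs and 0.499, 0.9 and 0.981 in MEFs (log2 change -1.78 ± 0.25, adjusted p = 0.0165, blocked adjusted p = 0.0431). Spry1 was at 11.4, 15 and 12.3 FPKM in PEFs and 4.298, 2.89 and 4.89 in MEFs (log2 change -1.48 ± 0.22, adjusted p = 0.0181, blocked adjusted p = 0.0561). The other members had log2 changes of -1.14 for Pdgfa, -1.31 for Pdgfc, -1.53 for Fgf2, whose unit also holds Bbs12, -2.96 for Flt1 and -1.71 for Spry4.

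Imprinted genes, expressed from 1 parental allele, fell in 5 of 27 cases and rose in 1 (3 lower with the block, 1 called without 1 PEF population, 5 to 10 without 1 MEF line). Beside H19, Igf2 and Cdkn1c these were H13 and Nnat, with log2 changes of -1.05 and -1.22. Sgce, epsilon-sarcoglycan, was at 21.1, 20.6 and 18.7 FPKM in PEFs and 58.03, 34.8 and 50.7 in MEFs and rose (log2 change 1.18 ± 0.22, adjusted p = 0.03, blocked adjusted p = 0.0643). In the IGF axis Igf2 was the only called member of 18, in both fits (0 without 1 PEF population, 1 to 3 without 1 MEF line). The binding proteins Igfbp7 and Igfbp4 were abundant and scattered in MEFs. Igfbp7 was at 785, 895 and 1105 FPKM in PEFs and 46, 526 and 211 in MEFs (log2 change -2.40 ± 0.81, adjusted p = 0.106). Igfbp4 was at 239, 126 and 36.9 FPKM in PEFs and 198, 23.7 and 5.39 in MEFs (log2 change -1.73 ± 1.29, adjusted p = 0.403). In both PEFs and MEFs, Igfbp4 was highest in E13.1 and lowest in E14.4.

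Hox genes, which hold the positional identity of fibroblasts, gave no call by limma. Of 28 units 0 were called in either fit or without 1 PEF population, 0 had MEF values all above or all below those of PEFs, and 0 had an unadjusted p under 0.05. Over all units 17.3% had MEF values all above and 21.4% all below, and 6091 of 19919 had an unadjusted p under 0.05. Single lines nevertheless differed. Hoxa10 was at 15.7, 12.02 and 4.75 FPKM in PEFs and 31.5, 19.5 and 0.433 in MEFs (log2 change -0.13 ± 1.16, adjusted p = 0.951). Hoxc8, in a unit shared with Hoxc9, was at 5.97, 11.8 and 20.4 FPKM in PEFs and 0, 2.51 and 36.1 in MEFs (log2 change -1.29 ± 1.26, adjusted p = 0.525). It was thus listed at 0 in 1 line and higher than in any PEF population in another. Of 58 mesenchymal and limb transcription factors 1 rose and 2 fell (1 and 1 with the block, 0 or 1 called without 1 PEF population, 5 to 10 without 1 MEF line). Eya1 was at 3.01, 2.103 and 2.36 FPKM in PEFs and 14.5, 12.1 and 6.53 in MEFs (log2 change 1.73 ± 0.30, adjusted p = 0.0249, blocked adjusted p = 0.04996). Foxs1, a forkhead factor, was at 23.1, 18.8 and 26.3 FPKM in PEFs and 1.74, 0.961 and 0.122 in MEFs (log2 change -3.69 ± 0.35, adjusted p = 0.00728, blocked adjusted p = 0.0336). Meis3 was at 16.7, 19.4 and 22.01 FPKM in PEFs and 10.6, 7.84 and 6.92 in MEFs (log2 change -1.12 ± 0.21, adjusted p = 0.0298, blocked adjusted p = 0.0769).

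The fatty acid and the glycolysis lists gave calls at shares near that of all units. Of their members 8.57% and 11.4% were called, against 9.55% of all units. Of 35 fatty acid and lipid storage genes 3 fell (1 with the block, 0 without 1 PEF population, 2 to 7 without 1 MEF line), with values apart between groups in each. Fads3, of the desaturase family, was at 147, 153 and 146 FPKM in PEFs and 54.7, 68.7 and 43.6 in MEFs (log2 change -1.43 ± 0.20, adjusted p = 0.0159, blocked adjusted p = 0.0484). Fabp3, a fatty acid carrier, was at 37.1, 31.5 and 23.8 FPKM in PEFs and 1.597, 5.87 and 8.11 in MEFs (log2 change -2.52 ± 0.47, adjusted p = 0.0299, blocked adjusted p = 0.0662). Acly, which makes cytosolic acetyl-CoA, was at 78.3, 118 and 92.4 FPKM in PEFs and 46.3, 52.9 and 57.04 in MEFs (log2 change -0.86 ± 0.20, adjusted p = 0.0473, blocked adjusted p = 0.0779).

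In glycolysis and the hypoxia response 3 of 35 fell and 1 rose (1 lower with the block, 0 or 1 called without 1 PEF population). The lower ones were the lactate exporter Slc16a3, at 28.98, 22.03 and 11.8 FPKM in PEFs and 1.58, 0.0507 and 0.6802 in MEFs (log2 change -3.64 ± 0.43, adjusted p = 0.0125, blocked adjusted p = 0.0327), the glucose transporter Slc2a1, at 60.7, 61.9 and 75.3 FPKM in PEFs and 12.8, 32.7 and 19.5 in MEFs (log2 change -1.65 ± 0.33, adjusted p = 0.034, blocked adjusted p = 0.0609), and the isomerase Gpi1, at 39.8, 39.6 and 41 FPKM in PEFs and 25.7, 18.5 and 13.3 in MEFs (log2 change -1.07 ± 0.25, adjusted p = 0.046, blocked adjusted p = 0.0812). Ldhb, the lactate dehydrogenase chain that favours pyruvate, was at 14.4, 12.1 and 18.1 FPKM in PEFs and 30.7, 58.2 and 107 in MEFs (log2 change 1.91 ± 0.44, adjusted p = 0.0464, blocked adjusted p = 0.0576). The median of the list, -0.19, was near that of all units. Among 77 nuclear-encoded genes of the respiratory chain 0 were called, 19 had an unadjusted p under 0.05, and quantile normalization called 6 higher. Atp5b was at 1053, 1043 and 1318 FPKM in PEFs and 918, 1082 and 1488 in MEFs (log2 change 0.01 ± 0.22, adjusted p = 0.98). Cox6a1 was at 685, 691 and 673 FPKM in PEFs and 539.5, 536 and 603 in MEFs (log2 change -0.29 ± 0.13, adjusted p = 0.183).

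NRF2 targets and glutathione genes gave 4 higher and 5 lower of 43, or 3 and 1 with the block, 0 or 1 without 1 PEF population and 3 to 14 without 1 MEF line. The ferritin chains moved apart. Fth1, the heavy chain, was at 779, 773 and 533 FPKM in PEFs and 2271, 2242 and 1395 in MEFs (log2 change 1.49 ± 0.26, adjusted p = 0.0248, blocked adjusted p = 0.0327). Ftl1, the light chain, was at 237, 245 and 243 FPKM in PEFs and 158, 119 and 114 in MEFs (log2 change -0.90 ± 0.17, adjusted p = 0.0311, blocked adjusted p = 0.0716). Both have processed copies in the genome that may share reads with them. Gstt1, a glutathione S-transferase, was at 2.68, 3.14 and 0.122 FPKM in PEFs and 59.98, 44.5 and 11.97 in MEFs (log2 change 3.68 ± 0.73, adjusted p = 0.0332, blocked adjusted p = 0.02), and was lowest in E14.4 in PEFs and in MEFs. Gclm, which sets the rate of glutathione synthesis, was at 4.14, 4.798 and 3.85 FPKM in PEFs and 8.08, 7.43 and 8.41 in MEFs (log2 change 0.77 ± 0.16, adjusted p = 0.0383, blocked adjusted p = 0.0925), while Gss, the last enzyme of that synthesis, was at 34.1, 34.5 and 31.2 FPKM in PEFs and 17.1, 14.2 and 19.8 in MEFs (log2 change -0.94 ± 0.18, adjusted p = 0.03, blocked adjusted p = 0.0762). Gpx3, the secreted glutathione peroxidase, was at 3.44, 8.91 and 8.86 FPKM in PEFs and 0, 0.529 and 0.144 in MEFs (log2 change -2.65 ± 0.37, adjusted p = 0.0165, blocked adjusted p = 0.0352). Mgst2 was the fourth higher member, at 2.45†, and Gpx7 and Pgd the other lower ones, at -1.05 and -0.95. Of 29 aldehyde, retinoid and aldo-keto enzymes 3 fell (1 with the block, 0 or 1 without 1 PEF population, 2 to 9 without 1 MEF line). Aldh1a3, which makes retinoic acid, was at 14.96, 15.9 and 15.8 FPKM in PEFs and 1.12, 0.0333 and 0 in MEFs (log2 change -3.67 ± 0.32, adjusted p = 0.00651, blocked adjusted p = 0.0297). Aldh4a1, in a unit with Iffo2 and others, was at 26.95, 26.4 and 29.2 FPKM in PEFs and 6.57, 13.5 and 11.3 in MEFs (log2 change -1.37 ± 0.26, adjusted p = 0.0313, blocked adjusted p = 0.0613). Aldh1l1, in a shared unit as well, was at 2.58, 2.03 and 2.499 FPKM in PEFs and 0.134, 0.502 and 0.934 in MEFs (log2 change -1.17 ± 0.26, adjusted p = 0.0439, blocked adjusted p = 0.0859).

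Housekeeping machines gave few calls. For ribosomal, proteasome and lysosome genes the scaling changed which members were called, and with them the direction of most calls. The called genes named below kept their own direction. Of 81 cytosolic ribosomal proteins 5 fell with FPKM as deposited and 0 rose (0 with the block or without 1 PEF population, 2 to 9 without 1 MEF line), whereas after quantile normalization 5 were called higher and 2 lower. Rpl11 was at 1029.7, 1020.5 and 1212 FPKM in PEFs and 595, 592 and 534 in MEFs (log2 change -0.92 ± 0.14, adjusted p = 0.0196, blocked adjusted p = 0.0585). Rplp2, in a unit with a small nucleolar RNA, was at 1373, 1437 and 1633 FPKM in PEFs and 891, 804 and 791 in MEFs (log2 change -0.84 ± 0.14, adjusted p = 0.0218, blocked adjusted p = 0.0622). Rpl18 was at 2116, 2166 and 2443 FPKM in PEFs and 1542, 1208 and 1214 in MEFs (log2 change -0.77 ± 0.15, adjusted p = 0.034, blocked adjusted p = 0.0744). Ribosomal protein genes have many near-identical copies, so their values are uncertain. Of 45 genes of ribosome biogenesis 1 fell, Grwd1, at 24.4, 23.4 and 27.1 FPKM in PEFs and 6.601, 12.2 and 14.1 in MEFs (log2 change -1.17 ± 0.28, adjusted p = 0.0498, blocked adjusted p = 0.0744), and the nucleolar proteins Npm1 and Ncl were not called. Npm1 was at 941, 986 and 971 FPKM in PEFs and 712, 877 and 1069 in MEFs (log2 change -0.14 ± 0.18, adjusted p = 0.622). Ncl, in a unit with small RNA genes, was at 202, 228 and 258 FPKM in PEFs and 127, 251 and 371 in MEFs (log2 change -0.00 ± 0.38, adjusted p = 0.998). Of 41 proteasome subunits 2 fell and 0 rose with FPKM as deposited (0 called without any 1 PEF population), a smaller share than the 6.68% of all units that fell, and quantile normalization called 3 higher and 1 lower. Psmd8 was at 311, 307 and 397 FPKM in PEFs and 151, 136 and 114 in MEFs (log2 change -1.34 ± 0.18, adjusted p = 0.0155, blocked adjusted p = 0.0538). Psmb5 was at 8.82, 8.81 and 11.5 FPKM in PEFs and 4.32, 3.698 and 5.799 in MEFs (log2 change -0.94 ± 0.21, adjusted p = 0.0435, blocked adjusted p = 0.0645). Of 44 lysosomal genes 2 fell and 0 rose with FPKM as deposited, both cathepsins (0 called without any 1 PEF population), and quantile normalization called 3 higher and 1 lower. Ctsc was at 8.63, 4.86 and 11.1 FPKM in PEFs and 1.47, 1.94 and 2.42 in MEFs (log2 change -1.59 ± 0.30, adjusted p = 0.031, blocked adjusted p = 0.0553). Ctsd was at 55.6, 50.8 and 45.2 FPKM in PEFs and 33.3, 18.8 and 19.7 in MEFs (log2 change -1.09 ± 0.25, adjusted p = 0.046, blocked adjusted p = 0.0663). None of these calls in the ribosome, proteasome or lysosome lists held with the block.

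In the unfolded protein and integrated stress response list 11.4% of members were called, against 9.55% of all units, and the median was -0.44. In the heat shock and chaperonin list 2.86% were called. Of 35 genes of the unfolded protein and integrated stress response 4 fell and 0 rose (1 with the block, 0 without 1 PEF population, 2 to 4 without 1 MEF line). They were Gdf15, Sesn2, at 17.7, 20.97 and 15.3 FPKM in PEFs and 8.54, 7.77 and 10.1 in MEFs (log2 change -0.95 ± 0.19, adjusted p = 0.0343, blocked adjusted p = 0.0865), the chaperone Sdf2l1, at 19.6, 15.2 and 12.3 FPKM in PEFs and 3.71, 7.61 and 6.096 in MEFs (log2 change -1.31 ± 0.29, adjusted p = 0.0408, blocked adjusted p = 0.0866), and Manf, with a log2 change of -0.78. Of 35 heat shock and chaperonin genes 1 fell in both fits, the small heat shock protein Hspb1, at 263, 277 and 347 FPKM in PEFs and 28.7, 50.9 and 86.9 in MEFs (log2 change -2.52 ± 0.39, adjusted p = 0.0199, blocked adjusted p = 0.0358). Hsp90ab1 was at 744, 802 and 883 FPKM in PEFs and 587, 834 and 902 in MEFs (log2 change -0.08 ± 0.20, adjusted p = 0.801). Hsp90aa1 was at 258, 292 and 405 FPKM in PEFs and 190.5, 309.5 and 414 in MEFs (log2 change -0.11 ± 0.32, adjusted p = 0.848), and both were lowest in the E13.1 line.

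**Figure D5:**
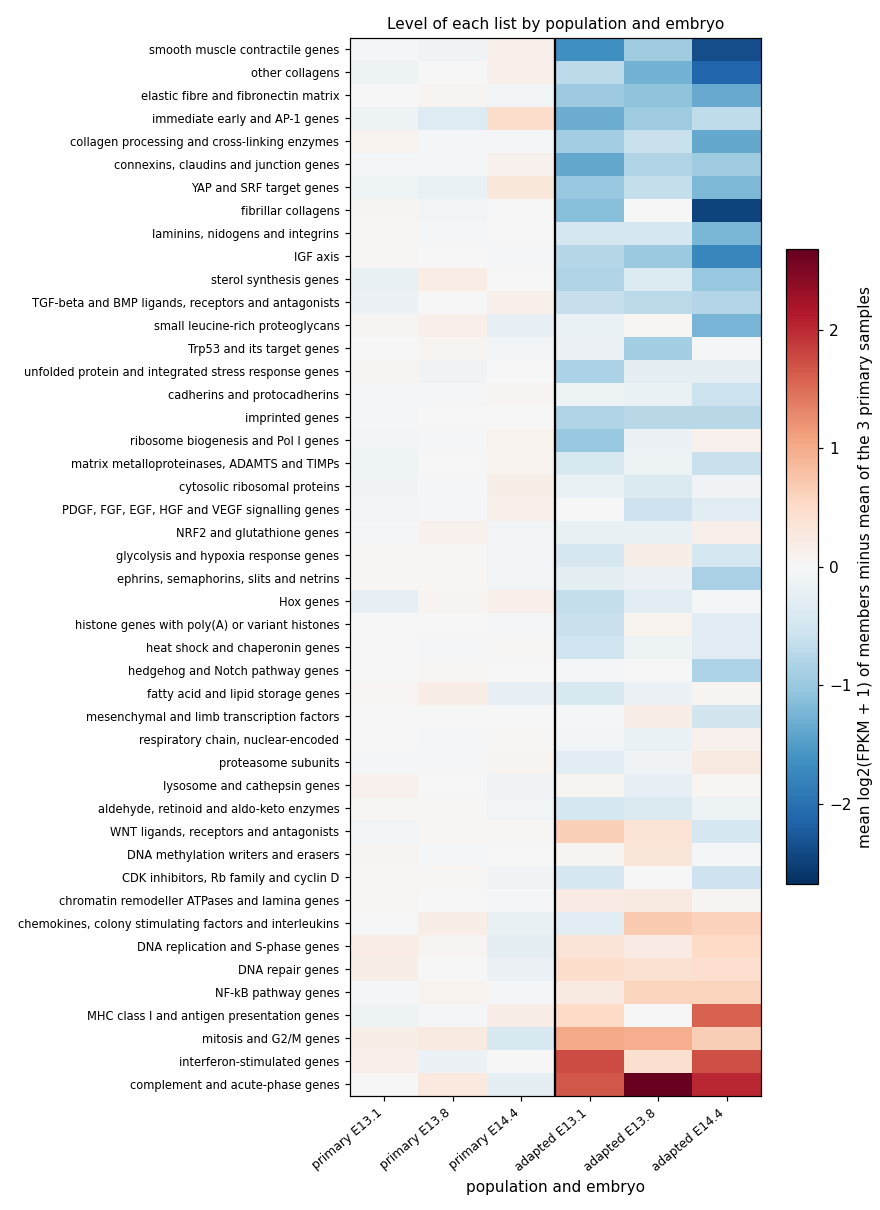
Mean log2(FPKM + 1) of the tested members of each list in each population, shown as the difference from the mean of the 3 primary populations (colour scale, red higher and blue lower). Interferon-stimulated genes are less raised in the E13.8 line than in the other 2 lines, and fibrillar collagens are lowest in the E14.4 line.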

How the data were processed

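RNA-seq was made from poly(A)-selected RNA of PEFs and MEFs. Per the submitters' processing notes in the labels, the authors trimmed reads with cutadapt 1.8.3, aligned them to GRCm38 with HISAT2 2.0.5, assembled transcripts with Cufflinks and deposited FPKM per transcription unit from Cuffnorm. A table of the authors' own group comparisons (mean FPKM, fold changes, p-values and q-values from Cuffdiff 2.2.1) was not used. The read depth per sample is not given in the files, and the ratio of the smallest FPKM steps gave depths of 1 to 1.61 in PEFs and 0.62 to 1.17 in MEFs, relative to PEFs of E14.4.

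From the deposited FPKM, log2(FPKM + 1) was compared with limma 3.58.1 in R 4.3.3 (eBayes with a trend, 6 samples, no covariate), in units whose FPKM averaged at least 1, with Benjamini-Hochberg adjustment and a threshold of 0.05. Changes are MEF minus PEF with the standard error of the fit, and understate those of low genes. Groups came from the labels, and embryos from per-line tables of the study with values identical to those deposited. Samples of an embryo are related, and their deviations from the group means had correlations of 0.146 (E13.1), -0.01 (E13.8) and 0.211 (E14.4). Fits with the embryo as a block are therefore given beside the others. Members and lists were chosen with earlier results of these data known. Each list symbol was matched to the unit that bears it alone, or else to a shared unit (115 of 1826 symbols), and 13 were unmatched. Named were, per list, up to 3 called members of smallest p in each direction where at least 2 were called in 1 direction, otherwise the called member and the 2 most abundant ones, plus 3 units in each direction outside the lists. Members named only with a log2 change were added after their values were seen, as were C1ra, C1s1, Lbp, Serpina3n, Tgfb1, Acta2 and the markers. On simulated data for this comparison, with 200 of 19919 units changed, 0, 135 and 167 were recovered at log2 changes of 1, 2 and 3, with 0, 8 and 11 other units called. The simulation gave PEFs and MEFs the same SD in each unit, whereas measured MEFs varied more. It also changed far fewer units than the 6091 measured at an unadjusted p under 0.05. Its recovery thus does not give that of the measured comparison. Other settings were a pseudocount of 0.1, no filter, a minimum mean of 5 FPKM, quantile and median-of-ratios scaling, all 4 groups of 3 in one fit, array weights, the embryo block and each sample left out. The sources used here do not say that strand was kept, so overlapping and antisense genes may share reads. Promoters came from RefSeq (GRCm38.p6). Some genes and results are not reported here.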

Additional observations from a re-analysis of the deposited data

How the results depend on the processing

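The 1902 calls (572 higher, 1330 lower) stayed within 1.5 times under a pseudocount of 0.1, a mean FPKM of at least 5, median-of-ratios scaling, quantile normalization, array weights and all 4 groups in one fit, except that the higher calls were 982 after quantile normalization, 863 with array weights and 897 with all 4 groups. Calls numbered 499 with the embryo as a replicate block (94 higher, 405 lower) and 988 without a filter, which tested more units (217 higher, 771 lower). Leaving out each population in turn gave 62 to 2972 calls, 4 to 1021 higher and 55 to 1951 lower, lowest without a PEF population and highest without the E14.4 MEF line. The cause of the loss without a PEF population was not tested. Of the 127 called genes singled out by rule, 58 kept their call with the block and 114 after quantile normalization, and none turned direction under any setting. The 0 calls for a difference between genotypes became 2 with a pseudocount of 0.1 and 0 to 234 with 1 of the 12 populations left out, 234 without the E13.15 and 7 without the E13.17 CIZ1 null line.

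Genes that were not called changed sign under some settings. After quantile normalization the log2 change was 0.16 for Timp2, 0.22 for H2-D1, 0.20 for Npm1, 0.33 for Ncl, 0.084 for Cox6a1, 0.25 for Hsp90ab1, 0.21 for Hsp90aa1 and 0.057 for Mbd3. With array weights it was 0.077 for Ncl and 0.018 for Hsp90aa1. With 1 population left out it ranged from -1.65 to 2.77 for Dcn, -0.30 to 0.15 for Timp2, -0.64 to 0.43 for H2-D1, -0.29 to 0.0040 for Npm1, -0.35 to 0.42 for Ncl, -0.18 to 0.17 for Atp5b, -0.21 to 0.10 for Hsp90ab1, -0.36 to 0.20 for Hsp90aa1, -0.99 to 1.26 for Hoxa10, -0.39 to 0.014 for Mbd3 and -0.066 to 0.22 for Mbd2. Depth limits genes of a few FPKM, since no fragment counts were used.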

Other observations

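Families read by the stem of their symbols, with 1 unit per symbol, were described beside the lists. Of all units, 2.87% were called higher and 6.68% lower. Zinc finger proteins of the Zfp stem gave 7 higher and 4 lower of 233, 1 and 1 with the block, and 18 and 3 after quantile normalization, and their median lay 0.35 log2 units above that of all units. Of the 233, 70 had all MEF values above all PEF values and 23 all below, against 17.3% and 21.4% of all units. None was called without any 1 PEF population, and 4 to 28 without 1 MEF line. Kinesins, the microtubule motors, gave 6 higher and 1 lower of 29 (1 higher with the block, 0 called without 1 PEF population, 0 to 7 without 1 MEF line). Membrane metalloproteinases of the Adam stem gave 4 lower of 10 (3 with the block, 0 without 1 PEF population, 4 to 6 without 1 MEF line), at a median -1.12 from that of all units. Integrins gave 6 lower and 1 higher of 17 (3 lower with the block, 0 called without 1 PEF population, 5 to 7 without 1 MEF line). Of 8 annexins, calcium-dependent membrane-binding proteins, 1 was called lower without the block and another with it (0 called without 1 PEF population, 0 to 2 without 1 MEF line), and 5 had all MEF values below all PEF values, against 21.4% of all units. Solute carriers gave 5 higher and 12 lower of 177 (2 and 4 with the block, 0 to 2 called without 1 PEF population, 13 to 23 without 1 MEF line) and Rab GTPases 1 higher of 55 (0 with the block or without 1 PEF population, 2 to 6 without 1 MEF line), with medians 0.01 and 0.03 from that of all units. Of solute carriers 9.60% were called and of Rab GTPases 1.82%, against 9.55% of all units. Predicted genes of the Gm stem gave 18 higher and 100 lower of 931 (4 and 34 with the block, 5 to 8 called without 1 PEF population, 75 to 174 without 1 MEF line).

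Outside the lists, 1708 of the 1902 called units remained. The strongest single-symbol units were a second unit at the Lcn2 gene, Glrx and Hs6st2 among those that rose and Gm44429, C1qtnf3 and Tnmd among those that fell. Glrx, glutaredoxin, was at 9.17, 12 and 7.06 FPKM in PEFs and 51.4, 56.5 and 55.9 in MEFs (log2 change 2.44 ± 0.21, adjusted p = 0.00651, blocked adjusted p = 0.0326). Hs6st2, a heparan sulfate 6-O-sulfotransferase, was at 15.6, 17.9 and 20.3 FPKM in PEFs and 72.5, 57.8 and 64.6 in MEFs (log2 change 1.803 ± 0.18, adjusted p = 0.00864, blocked adjusted p = 0.0397). C1qtnf3, a secreted C1q and TNF related protein, was at 36.95, 68.2 and 63.3 FPKM in PEFs and 0.579, 0.439 and 0.531 in MEFs (log2 change -5.19 ± 0.26, adjusted p = 0.00115, blocked adjusted p = 0.0159). Tnmd, tenomodulin, a tendon protein, was at 43.97, 51.4 and 23.6 FPKM in PEFs and 0, 0.0924 and 0 in MEFs, and was listed at 0 in 2 of 3 lines (log2 change -5.23 ± 0.30, adjusted p = 0.00202, blocked adjusted p = 0.0159). The predicted gene Gm44429 was at 10.8, 12.3 and 13.3 FPKM in PEFs and listed at 0 in every MEF line.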
